A study of Mus musculus with 6 samples.

Results

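The glycosyltransferases described here are enzymes of the Golgi that start, branch, extend and cap the sugar chains of proteins and lipids. Members were taken by symbol alone, as every Galnt, Gcnt, B3gnt, B3galt, B4galt, B4galnt, St3gal, St6gal, St6galnac, St8sia and Fut gene followed by a number. That rule found 74 genes (75 rows, because St6galnac2 has 2) among 21900 distinct symbols in 21936 rows. The samples were 6 RNA sequencing libraries from whole mouse uterus, 3 with the genotype label Mettl3 f/f and 3 with Mettl3 d/d. All came from pregnant females at gestational day 4, where the day of the plug is day 1, after mating at 6 to 8 weeks of age with fertile males. METTL3 is the methyltransferase subunit that places N6-methyladenosine in RNA. In common usage f/f is a floxed allele and d/d its deleted form, and both stand here for the library labels. Which Cre drove the deletion, in which cells, and which exons it removed is not stated in the labels. The labels also leave unsaid whether replicates were separate animals, so a p-value here speaks for the spread among libraries, which may be technical.

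Mucin-type O-glycans begin when a Galnt enzyme puts N-acetylgalactosamine on serine or threonine, and Gcnt enzymes then branch the chain. B3gnt and B4galt enzymes add N-acetylglucosamine and galactose in turn, which builds poly-N-acetyllactosamine on proteins and lipids. Sialyltransferases (St genes) and fucosyltransferases (Fut genes) cap the ends, and in the uterus such capped chains coat the luminal epithelium that the embryo meets.

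Values are FPKM, fragments scaled for gene length and library size, so levels can be set side by side between genes. The fold is the ratio of mean FPKM, and the log2 fold change is labelled d/d minus labelled f/f after adding 1 to each FPKM, which shrinks the change of genes near 1 FPKM. A gene was tested with limma if it had at least 1 FPKM in at least 3 libraries. It was called higher or lower at a Benjamini-Hochberg adjusted p under 0.05 over all 12979 genes tested. An exact permutation test of 3 libraries against 3 cannot go below p = 0.1, the value reached by every tested member whose genotypes did not overlap. In whole tissue, fewer cells of a type and less RNA per cell cannot be told apart.

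The library totals ran from 535043 to 625575 FPKM. Absolute depth is unknown. Relative depth was estimated at 0.936 to 1.01 of f/f replicate 1. Mettl3 itself stood at 30.3, 29.8 and 26.3 FPKM in the libraries labelled f/f and at 42.9, 30.1 and 46.5 in those labelled d/d, with overlap. Each value covers the whole gene, so it checks no deletion of part of it. The spread between libraries was wider in d/d, with a median SD over genes of 0.301 on the log2 scale against 0.126 in f/f. Markers of epithelium, stroma and smooth muscle were present in every library. The summed level of 13 luminal and shared epithelial markers was 1319 to 1520 FPKM in f/f and 2349, 991 and 3865 FPKM in d/d replicates 1, 2 and 3. The summed level of 8 macrophage and myeloid markers was 262 to 377 FPKM in f/f and 995, 4505 and 351 FPKM in d/d. The summed level of 8 neutrophil markers was 6.58 to 13.3 FPKM in f/f and 28.5, 1130 and 29.1 FPKM in d/d, with Elane at 0 in all 6 libraries. Of these lists, 3 of 13 epithelial genes, 1 of 8 myeloid genes and 0 of 5 tested neutrophil genes (1 at an unadjusted p under 0.05, which 26.7% of all genes tested reached) were called higher by limma, and none lower. Of all genes tested, 3.49% were called higher and 3.81% lower.

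Other marker lists held genes called lower, as 3.81% of all genes tested were. Of 7 tested glandular epithelial markers, Spink1 and Ttr were called lower and Aldh1a1 higher, and the list of 9 summed to 65.7, 85.6 and 95.4 FPKM in f/f and to 123, 52.9 and 69.5 FPKM in d/d. Spink1 was listed at 31.03, 36.9 and 20.7 FPKM in f/f, against 0.455, 0 and 0 FPKM in d/d. Of 10 stromal markers, Hoxa11 and Hand2 were called lower (log2 fold change -2.22 and -1.71, limma adjusted p = 0.00887 and 0.025) and 0 higher, while the list summed to 2961 to 3287 FPKM in f/f and to 1810, 4324 and 3340 FPKM in d/d. Called lower were also 1 of 8 smooth muscle markers (Smtn), 1 of 8 endothelial markers (Cdh5), 1 of 7 lymphocyte and NK cell markers (Prf1) and 1 of 3 mesothelial markers (Wt1), with 0 called higher in each of these lists. Spink1, Ttr and Prf1 were under 1 FPKM in every d/d library, so they passed the filter only through f/f. The counts that hold them are no support. The smooth muscle list summed to 2507 to 5993 FPKM in f/f and 1135 to 4782 FPKM in d/d. The part that these cells have in the results below was not tested, beyond the ratios given for the epithelium.

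Of the 74 members, 52 were tested. Called higher in the libraries labelled d/d were 7 of them, Galnt3, Galnt6, Galnt12, B4galnt1, B4galnt4, St6gal1 and Fut9, against a background of 3.49% of all genes tested. Called lower was 1, B3gnt5, against a background of 3.81%. In either direction that is 15.4% of the tested members beside 7.30% of all genes tested. The median log2 fold change of the tested members was 0.10, beside 0.02 over all genes, and 28 members had a positive and 24 a negative value. An unadjusted p under 0.05 was reached by 19 tested members, 36.5% beside 26.7% of all genes tested. The genotypes did not overlap in 20 tested members (15 above and 5 below), which is 38.5% beside a background of 35.9%. With means at least 2-fold apart there were 13 such members (11 above and 2 below), 25% beside a background of 12.0%. Galnt6 was under 1 FPKM in every f/f library and St8sia2 in every d/d library, so these 2 passed the filter only through the genotype where they were high, and the counts that hold them are no support. Fut9 reached 1 FPKM in 1 f/f library, so it too needed its high d/d values to pass, and the same limit holds for it.

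The calls depended on the f/f libraries. Without f/f replicate 1 no member was called, while 14 had an unadjusted p under 0.05, and of all genes 0 were called with 2292 under that p. Without f/f replicate 2, and again without f/f replicate 3, the 2 members called were B3gnt5 and St6gal1, beside 0.231% and 0.855% of all genes tested. Without d/d replicate 2 the number of members called was 13, beside 10.5% of all genes tested. Without d/d replicate 1 it was 10, beside 10.2%. In the main fit 7.30% of all genes tested were called. Where a setting is named below as bringing a member past the threshold, that member was not called in the settings left unnamed. With no filter on low values, Galnt6, Galnt12 and B4galnt4 were no longer called (limma adjusted p = 0.0514, 0.0665 and 0.0591).

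**Figure D1:**
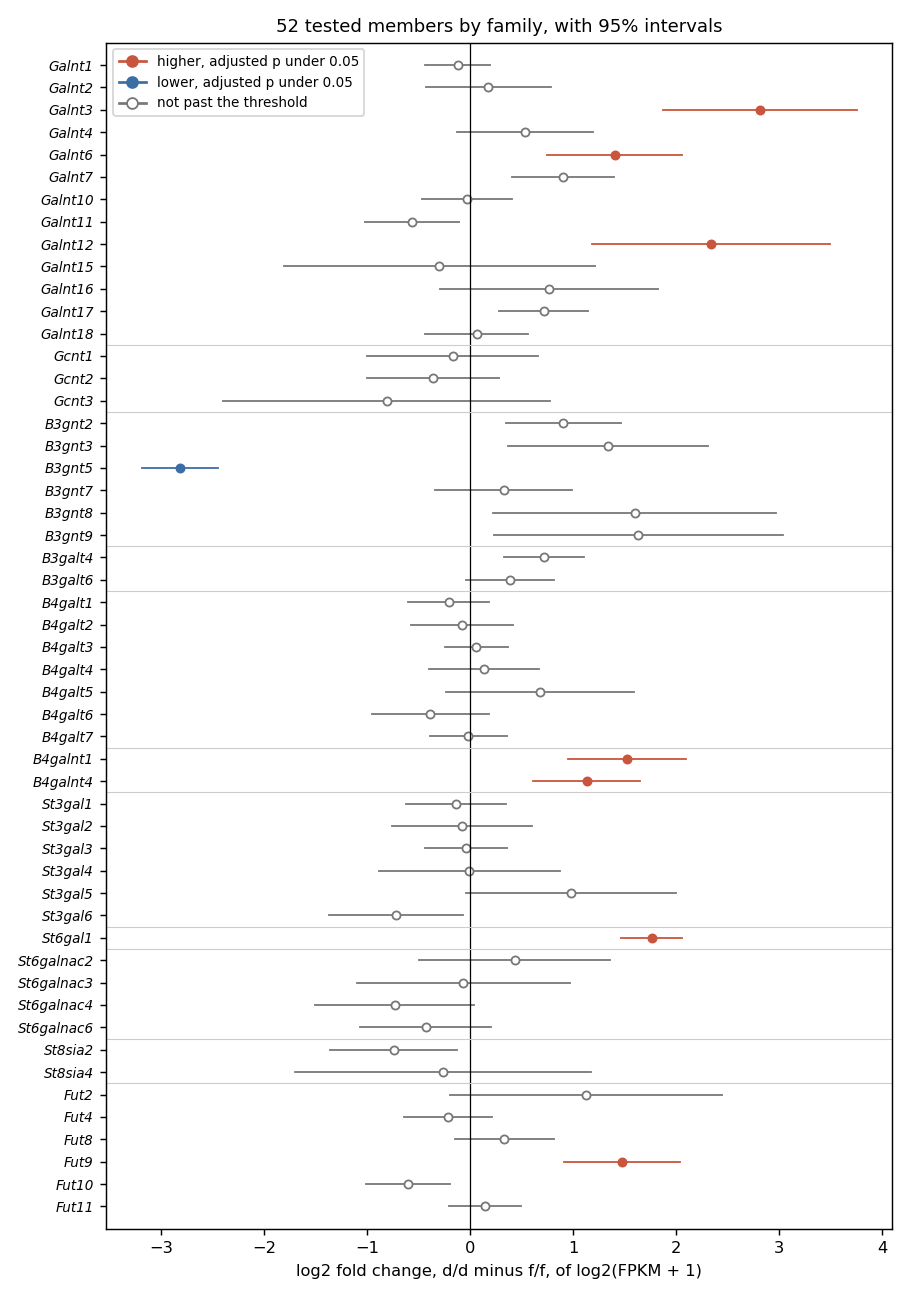
Log2 fold change (labelled d/d minus labelled f/f, log2(FPKM + 1) scale, x axis) of the 52 tested members by family, with 95% intervals from limma. Filled points are the 7 members called higher and the 1 called lower, B3gnt5, whose interval from -3.19 to -2.45 lies to the left of all the others' estimates.

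B3gnt5 and St6gal1 were the members with the smallest adjusted p, and Galnt3 had the highest fold of the members called higher. The windows around their annotated starts are printed so that these 3 genes can be compared: 250 bases before the start and 50 after, 5′ to 3′ on the gene's strand, from RefSeq on GRCm38.p6. They lie at chr16:19759984-19760283 on the plus strand for B3gnt5, at chr16:23224490-23224789 on the plus strand for St6gal1 (1 of 3 annotated starts), and at chr2:66124744-66125043 on the minus strand for Galnt3. Capitals mark each GC box, GGGCGG or its reverse complement CCGCCC.
B3gnt5: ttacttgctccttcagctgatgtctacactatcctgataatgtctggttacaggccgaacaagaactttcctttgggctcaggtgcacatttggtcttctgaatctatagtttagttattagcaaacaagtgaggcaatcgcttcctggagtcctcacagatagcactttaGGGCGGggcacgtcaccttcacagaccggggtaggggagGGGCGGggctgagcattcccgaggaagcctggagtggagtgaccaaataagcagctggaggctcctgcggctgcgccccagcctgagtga
St6gal1: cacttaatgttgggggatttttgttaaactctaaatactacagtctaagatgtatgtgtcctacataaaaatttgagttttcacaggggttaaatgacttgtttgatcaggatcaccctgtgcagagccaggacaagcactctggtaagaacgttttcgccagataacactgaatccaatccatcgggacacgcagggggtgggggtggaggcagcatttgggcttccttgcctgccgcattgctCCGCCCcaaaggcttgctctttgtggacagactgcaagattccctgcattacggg
Galnt3: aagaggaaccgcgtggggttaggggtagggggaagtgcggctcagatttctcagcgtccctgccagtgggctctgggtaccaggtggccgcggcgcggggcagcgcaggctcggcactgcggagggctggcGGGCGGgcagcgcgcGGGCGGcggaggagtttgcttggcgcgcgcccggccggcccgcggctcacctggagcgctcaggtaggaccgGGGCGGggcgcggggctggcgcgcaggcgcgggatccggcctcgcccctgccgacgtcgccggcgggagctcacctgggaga
The 3 windows held 2, 1 and 3 GC boxes and a GC content of 53.3%, 48.0% and 76.7%, beside a median of 52.7% over 32851 RefSeq windows of the same length. A GC box on either strand was in 35.7% of all those windows. Other motifs were searched on both strands too. The nuclear receptor element AGGTCA was present in 16.3% of all windows. The progesterone and glucocorticoid receptor element AGAACA was present in 19.0%, and the TATA box motif, spelled TATAAA, in 13.6%. None of those 3 was in the printed windows, which says only that these letters are not in these bases. The windows of the other two St6gal1 starts held no GC box, and the one at chr16:23290220-23290519 held 1 copy of AGGTCA. Of the 74 member symbols, 54 had a RefSeq window.

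B3gnt5 makes lactotriaosylceramide, the step that commits a lipid-linked chain to the lacto and neolacto series of glycosphingolipids. Its gene spans chr16:19760208-19772753 (GRCm38, plus strand, protein coding). Its levels were 19.9, 16.3 and 15.4 FPKM in the libraries labelled f/f, against 1.47, 1.66 and 1.58 FPKM in those labelled d/d. All 3 libraries labelled d/d lay far below all 3 f/f libraries and close to each other. The mean fell from 17.2 ± 2.39 to 1.57 ± 0.0954 FPKM (SD, n = 3 each), 10.96-fold lower (log2 fold change -2.82, SE 0.15, 95% interval -3.19 to -2.45, limma adjusted p = 0.00365). The glandular markers Spink1 and Ttr and the stromal markers Hoxa11 and Hand2 were lower in the same libraries, but their lists were mixed. Spink1 and Ttr had passed the filter only through f/f. The glandular Aldh1a1 was called higher. The stromal Vim (mean 595 FPKM in f/f, 263 in d/d) and Pdgfra (41.4 and 16.9) were lower without overlap and were not called. Vim, Pdgfra, Hoxa11 and Hand2 were the 4 of 10 stromal markers at an unadjusted limma p under 0.05 (26.7% of all genes tested). The stromal Lum (mean 134 FPKM in f/f, 307 in d/d) and Dcn (498 and 804) were higher by mean with overlap, without being called. The median log2 fold change was -0.81 over the glandular list and -0.25 over the stromal list. The part of these cells in the fall of B3gnt5 was not tested. In f/f B3gnt5 was the most abundant of the 8 B3gnt genes by mean, with 34.6% of their summed mean FPKM. Leaving out f/f replicate 1 gave a log2 fold change of -2.71 with a limma adjusted p of 0.0549.

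The other tested B3gnt genes, which extend chains on proteins, were not called. B3gnt3 extends core 1 O-glycans and stood at 11.4, 10.6 and 7.80 FPKM in f/f, against 27.1, 14.4 and 45.8 FPKM in d/d. B3gnt8, a poly-N-acetyllactosamine enzyme that works with B3gnt2, stood at 4.16, 5.16 and 3.24 FPKM in f/f, against 6.05, 13.7 and 35.1 FPKM in d/d. B3gnt9 stood at 7.13, 6.57 and 8.15 FPKM in f/f, against 13.4, 67.4 and 16.0 FPKM in d/d. In each of these 3 genes every d/d library lay above every f/f library, with 1 d/d library far above the rest for B3gnt8 (replicate 3) and B3gnt9 (replicate 2). Their log2 fold changes were 1.34 for B3gnt3 (SE 0.40, limma adjusted p = 0.0967), 1.60 for B3gnt8 (SE 0.57, adjusted p = 0.138) and 1.63 for B3gnt9 (SE 0.58, adjusted p = 0.138). The library with the high B3gnt9 value is the one with the highest myeloid, neutrophil, lymphocyte and NK cell, and stromal marker sums. With that library left out, the log2 fold change of B3gnt9 was 0.92 at a limma adjusted p of 0.0285, and that of B3gnt3 was 1.75 at 0.0238. With d/d replicate 1 left out, that of B3gnt8 was 2.16 at an adjusted p of 0.0402. None of the 3 genes was called in its other fits with 1 library left out. There the limma adjusted p ran from 0.116 to 0.269 for B3gnt3, from 0.144 to 0.330 for B3gnt8 and from 0.0909 to 0.332 for B3gnt9.

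B3gnt2, the main poly-N-acetyllactosamine enzyme, stood at 5.50, 8.28 and 9.30 FPKM in f/f, against 12.4, 14.7 and 18.4 FPKM in d/d. The genotypes did not overlap, and its log2 fold change of 0.90 (SE 0.23) had a limma adjusted p of 0.0704. It is uncertain, because 58.6% of its exon bases are shared with Gm28048 on the same strand (Commd1b in the files, 6.36 to 10.3 FPKM in f/f and 15.2 to 16.9 in d/d). B3gnt7, which extends keratan sulfate chains, overlapped between genotypes (3.30 ± 0.401 FPKM in f/f, 4.59 ± 1.94 in d/d). B3gnt6, the core 3 enzyme, stayed at or below 0.405 FPKM and was not tested. B3gnt4 was also not tested, with 0 listed in 3 libraries and 0.377 FPKM at most. The summed level of the 8 genes was 51.1, 50.9 and 47.5 FPKM in f/f and 67.6, 117 and 120 FPKM in d/d, so the family total was higher in each d/d library while B3gnt5 within it was lower.

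**Figure D2:**
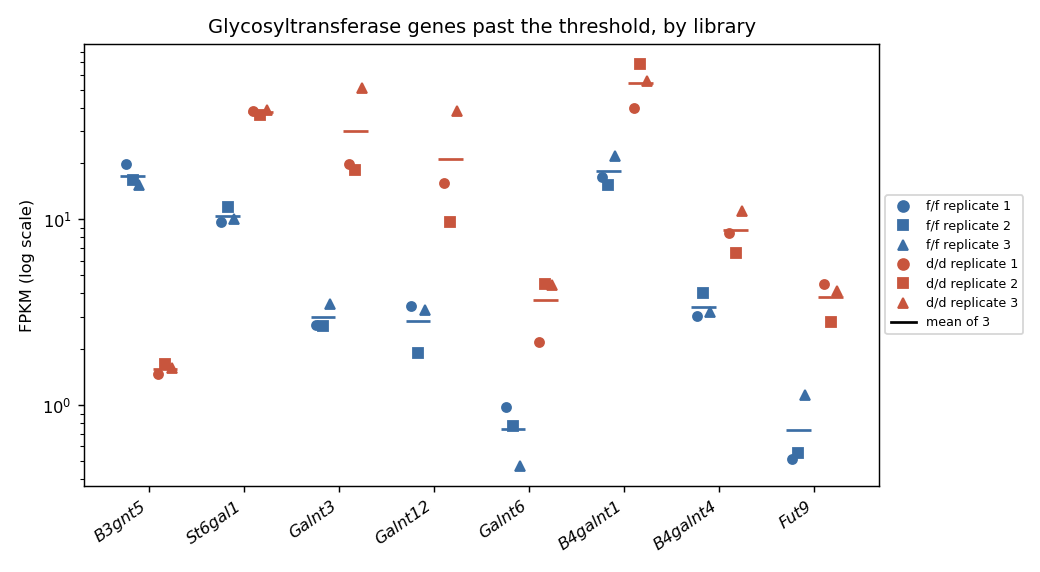
FPKM (log scale, y axis) of the 8 members past the threshold in each library, with a line at the mean of 3 libraries per genotype. For B3gnt5 the d/d libraries lie at 1.47 to 1.66 below the f/f libraries at 15.4 to 19.9, and for the other 7 genes every d/d library lies above every f/f library.

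The Galnt family starts O-glycan chains, and 3 of its 13 tested genes were called higher, Galnt6 among them, beside 3.49% of all genes tested. An unadjusted limma p under 0.05 was reached by 6 of the 13, beside 26.7% of all genes tested. Galnt3, known for the O-glycan that protects the hormone FGF23 from cleavage, spans chr2:66082766-66124994 on the minus strand. Its levels were 2.70, 2.68 and 3.52 FPKM in f/f, against 19.9, 18.5 and 51.1 FPKM in d/d. The f/f libraries were close together, and d/d replicate 3 stood well above the other d/d libraries. The mean rose from 2.97 ± 0.483 to 29.9 ± 18.4 FPKM, 10.1-fold (log2 fold change 2.81, SE 0.39, 95% interval 1.87 to 3.75, limma adjusted p = 0.0192). Leaving out d/d replicate 3 gave 2.36 (adjusted p = 0.00871).

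Galnt12, another enzyme that starts mucin-type chains, stood at 3.40, 1.91 and 3.25 FPKM in f/f, against 15.8, 9.64 and 38.1 FPKM in d/d. It had the same order of d/d libraries as Galnt3, with replicate 3 highest and replicate 2 lowest. The mean rose 7.43-fold, from 2.85 ± 0.822 to 21.2 ± 15.0 FPKM (log2 fold change 2.34, SE 0.48, 95% interval 1.18 to 3.49, limma adjusted p = 0.0408). Galnt6, a close relative of Galnt3, stood at 0.981, 0.769 and 0.472 FPKM in f/f, against 2.19, 4.51 and 4.41 FPKM in d/d. Here d/d replicate 1, not replicate 2, was the lowest of its genotype, and no library overlapped. The mean rose 4.999-fold, from 0.740 ± 0.256 to 3.70 ± 1.31 FPKM (log2 fold change 1.40, SE 0.27, 95% interval 0.75 to 2.06, limma adjusted p = 0.0363). Its adjusted p was 0.0524 without d/d replicate 2 and 0.0637 without d/d replicate 3, and that of Galnt12 was 0.0634 without d/d replicate 1.

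Galnt7, which adds sugars to peptides that already carry one, stood at 7.37, 8.67 and 7.59 FPKM in f/f, against 13.8, 12.9 and 20.9 FPKM in d/d. The genotypes did not overlap, and its log2 fold change of 0.90 (SE 0.21, 95% interval 0.40 to 1.39) missed the threshold at a limma adjusted p of 0.0526. It was past it with library weights (adjusted p = 0.0422), without d/d replicate 2 (0.0393) and without d/d replicate 3 (0.0438). Galnt17 did not overlap either, at 2.28 to 3.46 FPKM in f/f and 4.78 to 5.28 FPKM in d/d (log2 fold change 0.71, adjusted p = 0.0668). Galnt11 had the opposite order, at 21.2 to 24.9 FPKM in f/f and 12.2 to 19.4 FPKM in d/d (log2 fold change -0.57, adjusted p = 0.12), and leaving out d/d replicate 1 gave -0.74 (adjusted p = 0.04). Galnt1, a broadly expressed enzyme, had the highest mean of the family in each genotype, 45.6 ± 3.63 FPKM in f/f and 41.9 ± 4.53 FPKM in d/d, and its interval ran from -0.44 to 0.19. Galnt2, which shares its broad expression, is uncertain here because 90.0% of its exon bases are shared with Gm20388 (Galnt2l in the files). It had 8.48 to 10.6 FPKM in f/f and 7.47 to 14.9 FPKM in d/d. Galnt4, Galnt10, Galnt15, Galnt16 and Galnt18 overlapped between genotypes at levels from 2.99 to 23.3 FPKM.

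By transcript level, Galnt1 made up 31.7% of the family's summed mean FPKM in f/f and 20.4% in d/d. The family sum was 138, 148 and 146 FPKM in f/f and 184, 187 and 246 FPKM in d/d. These sums weight each gene by its transcript level and say nothing of enzyme activity.

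Branching enzymes were not called. Gcnt1 and Gcnt3 make the core 2 branch of O-glycans and Gcnt2 the I branch of lactosamine chains. Gcnt3 stood at 22.3, 15.1 and 26.8 FPKM in f/f, against 23.1, 3.26 and 17.9 FPKM in d/d. Its low library was d/d replicate 2, the one with the lowest summed epithelial markers. Gcnt1 (12.7 to 13.7 FPKM in f/f, 7.982 to 21.004 in d/d) and Gcnt2 (30.8 to 36.1 FPKM in f/f, 16.8 to 35.4 in d/d) overlapped as well. None of the 3 tested genes had an unadjusted limma p under 0.05, and the widest interval, that of Gcnt3, ran from -2.40 to 0.78.

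Galactose is added by the B4galt and B3galt genes. B4galt1, the main galactosyltransferase of lactosamine chains, had the highest f/f mean of the 74 members, 58.3 ± 4.69 FPKM, beside 50.7 ± 9.20 FPKM in d/d. All 7 B4galt genes were tested, none was called by limma, and 0 had an unadjusted p under 0.05. The family summed to 171, 171 and 164 FPKM in f/f and to 152, 174 and 182 FPKM in d/d, so the totals overlapped. The interval of the log2 fold change was -0.60 to 0.18 for B4galt1 and -0.25 to 0.37 for B4galt3. B4galt5 and B4galt6 make lactosylceramide, the acceptor that B3gnt5 uses. B4galt5 stood at 10.6, 9.51 and 9.005 FPKM in f/f, against 8.21, 22.8 and 21.9 FPKM in d/d. Its d/d replicate 1 lay below f/f while the other d/d libraries lay above, and without that library its log2 fold change was 1.13 (adjusted p = 0.0164, against 0.302 with it). B4galt6 overlapped, at 12.7 to 16.2 FPKM in f/f and 7.42 to 13.9 FPKM in d/d.

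B3galt4 makes the ganglioside GM1 and its relatives, and stood at 2.64, 2.41 and 3.16 FPKM in f/f, against 4.69, 4.89 and 5.77 FPKM in d/d. The genotypes did not overlap, and the log2 fold change of 0.71 (SE 0.16, 95% interval 0.32 to 1.10) had a limma adjusted p of 0.0514. B3galt6, which builds the linker of proteoglycan chains, stood at 2.75 to 3.44 FPKM in f/f and 3.58 to 5.15 FPKM in d/d (adjusted p = 0.228). Neither of the 2 tested B3galt genes was called, and 1 had an unadjusted limma p under 0.05, beside 26.7% of all genes tested. B3galt1, B3galt2 and B3galt5 were not tested, with a highest value of 2.72 FPKM for B3galt5 in d/d replicate 3.

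Both tested B4galnt genes were called higher, beside 3.49% of all genes tested. B4galnt1 makes the gangliosides GM2 and GD2 and is at chr10:127165225-127172330 on the plus strand. Its levels were 16.999, 15.4 and 22.1 FPKM in f/f, against 39.5, 68.6 and 55.4 FPKM in d/d. Every d/d library lay above every f/f library, with d/d replicate 2 highest. The mean rose 3.01-fold, from 18.1 ± 3.50 to 54.5 ± 14.5 FPKM (log2 fold change 1.52, SE 0.24, 95% interval 0.94 to 2.09, limma adjusted p = 0.0238). Of its exon bases, 20.7% overlap Slc26a10 on the opposite strand, which stood at 1.00 to 1.85 FPKM in f/f and 0.296 to 0.794 FPKM in d/d. B4galnt4, which makes the LacdiNAc unit, stood at 3.02, 4.00 and 3.16 FPKM in f/f, against 8.49, 6.59 and 11.2 FPKM in d/d. It rose 2.58-fold with no overlap, from 3.39 ± 0.532 to 8.75 ± 2.30 FPKM (log2 fold change 1.13, SE 0.22, 95% interval 0.61 to 1.65, limma adjusted p = 0.0352). Without d/d replicate 1 its adjusted p was 0.0565. B4galnt2 and B4galnt3 were at or below 0.161 FPKM and were not tested.

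The glycolipid enzymes can be set side by side, since B3gnt5, B4galt5, B4galt6, B4galnt1, B3galt4 and St3gal5 act along connected routes from lactosylceramide. St3gal5 makes GM3, the precursor of most gangliosides, and stood at 6.98, 7.63 and 5.53 FPKM in f/f, against 6.62, 18.5 and 22.1 FPKM in d/d. As for B4galt5, d/d replicate 1 was the lowest of its genotype, here within the f/f range, and the other d/d libraries lay above it. Its log2 fold change was 0.98 (adjusted p = 0.205). Leaving out d/d replicate 1 gave 1.47 (limma adjusted p = 0.0176). Of these 6 genes, B3gnt5 was called lower, B4galnt1 was called higher and the other 4 were not called. The grouping was made after the values were seen.

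St6gal1 caps the lactosamine ends of N-glycans with sialic acid in the linkage that the B cell lectin CD22 binds. It lies at chr16:23224740-23360350 on the plus strand, 3.45 Mb from B3gnt5. Its levels were 9.70, 11.7 and 10.01 FPKM in f/f, against 38.2, 36.4 and 38.9 FPKM in d/d. The genotypes lay far apart and the libraries within each lay close together. The mean rose 3.61-fold, from 10.5 ± 1.09 to 37.8 ± 1.27 FPKM (log2 fold change 1.76, SE 0.12, 95% interval 1.47 to 2.06, limma adjusted p = 0.00517). Without f/f replicate 1 it was 1.71 with an adjusted p of 0.0549. St6gal2, the other gene of the family, was listed at 0 in all 6 libraries.

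The St3gal genes, which cap galactose in the other common linkage, were not called. Their family sum was 91.0, 90.0 and 83.0 FPKM in f/f and 79.6, 106 and 75.4 FPKM in d/d. St3gal6, which acts on lactosamine ends, was the member without overlap, at 26.8, 24.1 and 19.3 FPKM in f/f and 15.7, 18.0 and 9.03 FPKM in d/d (log2 fold change -0.72, limma adjusted p = 0.155). It shares 26.0% of its exon bases with Dcbld2 on the opposite strand. St3gal1, which caps core 1 O-glycans, had the highest family mean at 24.6 ± 2.40 FPKM in f/f and 22.8 ± 6.00 FPKM in d/d. Of the 6 tested St3gal genes, 1 had an unadjusted limma p under 0.05, beside 26.7% of all genes tested. St3gal4, which also caps lactosamine ends, had a mean of 14.6 ± 2.21 FPKM in f/f and 15.8 ± 9.06 FPKM in d/d, so the mean of St6gal1 was below that of St3gal4 in f/f and above it in d/d.

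St6galnac genes add sialic acid to the N-acetylgalactosamine of O-glycans and of gangliosides, and 0 of 4 tested were called by limma, with 0 at an unadjusted p under 0.05. St6galnac2 had a mean of 22.6 ± 2.78 FPKM in f/f and 33.7 ± 16.7 FPKM in d/d in the row with the higher level, and overlapped. St6galnac4 stood at 13.02, 12.4 and 12.4 FPKM in f/f, against 4.67, 12.4 and 6.16 FPKM in d/d. Without d/d replicate 2, the library at 12.4 FPKM, its log2 fold change was -1.09 (adjusted p = 0.0193, against 0.205 with it). St6galnac1, the sialyl-Tn enzyme, was not tested, at 0.570 to 0.909 FPKM in f/f and 0.0262 to 0.535 FPKM in d/d.

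Polysialic acid is made by St8sia2 and St8sia4. St8sia2 stood at 1.27, 1.18 and 1.76 FPKM in f/f, against 0.429, 0.877 and 0.0822 FPKM in d/d. It was 3.03-fold lower by means without overlap, and was not called (log2 fold change -0.74, SE 0.25, 95% interval -1.36 to -0.13, limma adjusted p = 0.127). St8sia4 stood at 3.77 to 4.79 FPKM in f/f, against 4.15, 8.42 and 0.701 FPKM in d/d, so the d/d libraries lay within, above and below the f/f range. Of these 2 tested genes, 1 (St8sia2) had an unadjusted limma p under 0.05, beside 26.7% of all genes tested. St8sia2 passed the filter only through f/f, so that count is no support. St8sia1, the GD3 enzyme, stayed at or below 0.448 FPKM, St8sia5 at or below 0.414 FPKM and St8sia6 at or below 1.22 FPKM, and none of these was tested. St8sia3 was listed at 0 in all 6 libraries.

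Fucose caps are added by the Fut genes, of which 1 of 6 tested was called higher, beside 3.49% of all genes tested. Fut9 makes the Lewis x structure, known on embryonic cells as SSEA-1. Its levels were 0.516, 0.555 and 1.14 FPKM in f/f, against 4.499, 2.81 and 4.13 FPKM in d/d. Fut9 needed its d/d values to pass the filter, so the count of 1 is no support. Every d/d library lay above every f/f library. The mean rose 5.17-fold, from 0.737 ± 0.349 to 3.81 ± 0.890 FPKM (log2 fold change 1.47, SE 0.23, 95% interval 0.91 to 2.03, limma adjusted p = 0.0244). Fut4, which makes related structures, overlapped at 3.05 to 4.25 FPKM in f/f and 2.76 to 3.52 FPKM in d/d.

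Fut2, which builds the H antigen on epithelial surfaces, had the highest mean of the family. Its levels were 16.5, 21.2 and 18.3 FPKM in f/f, against 46.8, 17.2 and 88.4 FPKM in d/d. The d/d libraries fell on both sides of f/f replicate 2, in the same order as the summed epithelial markers. Its log2 fold change was 1.13 (SE 0.55, limma adjusted p = 0.248). Leaving out d/d replicate 2, the library within the f/f range, gave 1.74 (adjusted p = 0.0266), in a setting that called 10.5% of all genes tested. Fut8, the core fucose enzyme of N-glycans, overlapped at 13.4 to 16.6 FPKM in f/f and 14.8 to 24.2 FPKM in d/d. Fut10 had the opposite order, at 7.07 to 8.31 FPKM in f/f and 4.00 to 5.78 FPKM in d/d (log2 fold change -0.60, adjusted p = 0.0826). Leaving out d/d replicate 2 brought that adjusted p to 0.0387. Fut11 overlapped, with an interval from -0.20 to 0.49. Fut1 and Fut7 were not tested. Fut7, the leukocyte enzyme that makes selectin ligands, stood at 0.0966 to 0.195 FPKM in f/f, against 0.162, 1.31 and 0.137 FPKM in d/d. Its high value is in the library with the highest neutrophil, myeloid, lymphocyte and NK cell, and stromal marker sums.

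**Figure D3:**
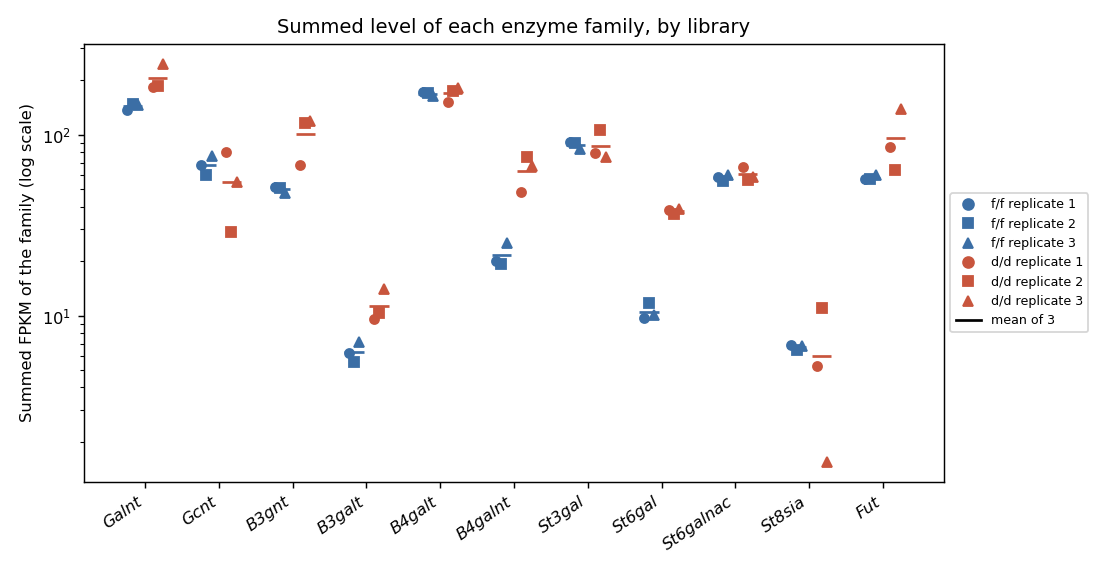
Summed FPKM (log scale, y axis) of each of the 11 families in every library, with a line at the mean of 3 libraries per genotype. The d/d libraries all lie above the f/f libraries for Galnt, B3gnt, B3galt, B4galnt, St6gal and Fut, and the B4galt sums of 152 to 182 overlap. The Gcnt, St3gal, St6galnac and St8sia sums overlap too. For Fut the gap is narrow, from 60.2 in f/f replicate 3 to 63.5 in d/d replicate 2. Of all single genes tested 35.9% did not overlap, and no such share was computed for sums.

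Which cells make each member cannot be read from whole tissue. The levels of some members were also divided by the summed epithelial markers of the same library. That ratio was chosen after the values were seen and is given without a test. Per 1000 FPKM of those markers, St6gal1 was 7.20, 8.89 and 6.59 in f/f and 16.3, 36.8 and 10.1 in d/d. Galnt3 was 2.00, 2.03 and 2.32 in f/f and 8.48, 18.7 and 13.2 in d/d. B3gnt5 was 14.8, 12.4 and 10.1 in f/f and 0.627, 1.68 and 0.409 in d/d. These 3 kept their order without overlap. Of the other 11 members divided this way, Galnt6, Galnt12, Fut9, B3gnt3 and Fut2 lay above f/f in every d/d library and St8sia2 lay below. The members divided were those given full statistics, and Fut2. All but Fut2 were without overlap before division, so a kept order is no support. Galnt6 and St8sia2 had passed the filter only through the genotype where they were high, and Fut9 had needed its high d/d values to pass. The share of all genes without overlap on this scale was not computed. B4galnt1, B4galnt4, B3gnt8, B3gnt9 and Galnt7 overlapped on this scale. For B4galnt1 the ratio was 11.6 to 14.5 in f/f and 16.8, 69.2 and 14.3 in d/d.

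**Figure D4:**
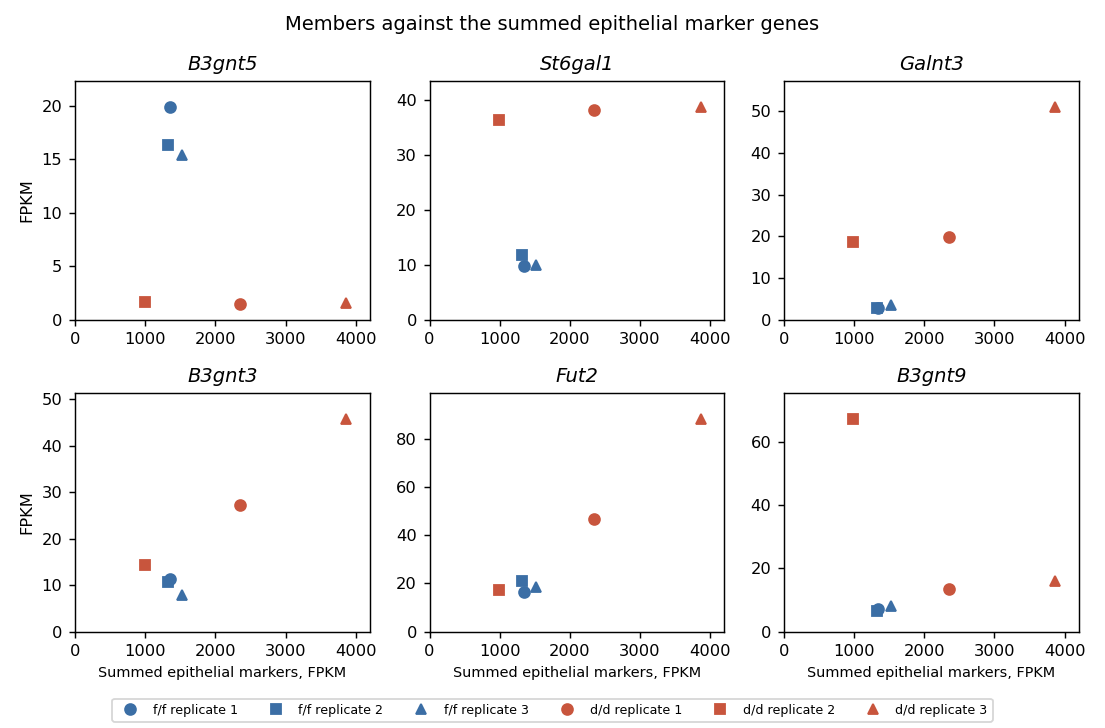
FPKM of 6 members (y axes) against the summed FPKM of 13 epithelial marker genes (x axes), 1 point per library. B3gnt5 and St6gal1 are nearly flat over d/d marker sums from 991 to 3865, B3gnt3 and Fut2 are highest where the sum is 3865, and B3gnt9 is highest where it is 991.

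Genes around these enzymes were counted in 7 lists, against the same backgrounds of 3.49% higher and 3.81% lower. The lists share no member with the 74 genes. Together 7 of their genes were called higher, Muc20 among them, and 3 lower. These became 0 and 0 without f/f replicate 1 or 2, and 3 and 0 without f/f replicate 3. For nucleotide sugar supply, 1 of 24 tested genes was called higher and 1 lower, with a list median log2 fold change of 0.25. Slc35c1, the transporter that brings GDP-fucose into the Golgi, stood at 12.7, 11.2 and 14.5 FPKM in f/f, against 33.9, 22.3 and 43.1 FPKM in d/d. It rose 2.59-fold without overlap (log2 fold change 1.27, limma adjusted p = 0.0383). Ugp2, which makes UDP-glucose, stood at 82.2, 89.8 and 112 FPKM in f/f, against 59.3, 38.9 and 47.8 FPKM in d/d. It was 1.95-fold lower without overlap (log2 fold change -0.96, adjusted p = 0.0417). The sialic acid genes of the list were not called: Gne, which starts the pathway, stood at 10.7 ± 0.645 FPKM in f/f and 12.98 ± 2.11 FPKM in d/d, and the transporter Slc35a1 at 18.8 ± 1.73 and 17.3 ± 0.745 FPKM. Nans, which makes sialic acid phosphate, and Cmas, which activates sialic acid, did not overlap: Nans had 25.8 ± 1.41 FPKM in f/f and 40.7 ± 10.6 FPKM in d/d (limma adjusted p = 0.132), and Cmas 23.8 ± 1.23 and 33.9 ± 8.59 FPKM (adjusted p = 0.184).

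N-glycan trimming and branching gave 0 calls among 12 tested genes by limma, with 5 at an unadjusted p under 0.05 (26.7% of all genes tested) and a median log2 fold change of 0.44. Its genes closest to the threshold were Mgat2, Mgat4b and Mgat5, which add branches (adjusted p = 0.0782, 0.0793 and 0.0825). Mgat2, for example, stood at 24.9, 24.8 and 26.6 FPKM in f/f, against 32.0, 50.6 and 55.2 FPKM in d/d. The 16 other glycosyltransferases tested gave 0 calls with 3 at an unadjusted limma p under 0.05, again beside 26.7% of all genes tested. C1galt1, which makes core 1 from the product of the Galnt enzymes, stood at 16.7 ± 1.51 FPKM in f/f and 14.5 ± 3.22 FPKM in d/d.

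Of 7 tested sulfotransferases, 1 was called higher: Chst7 stood at 1.69, 1.59 and 0.994 FPKM in f/f, against 9.90, 5.18 and 12.8 FPKM in d/d (6.53-fold, limma adjusted p = 0.0246). Of 11 glycosidases, 2 were called higher. Fuca2, a fucosidase, stood at 35.4, 36.1 and 39.1 FPKM in f/f, against 87.5, 77.7 and 99.0 FPKM in d/d (2.39-fold, limma adjusted p = 0.00956). Galc, which removes galactose from glycolipids, stood at 4.77, 4.77 and 6.68 FPKM in f/f, against 11.7, 14.3 and 10.9 FPKM in d/d (2.27-fold, limma adjusted p = 0.0287). Fuca2, like St6gal1, lay within a narrow range in each genotype. The lysosomal sialidase Neu1 was not called, at 16.1 to 20.3 FPKM in f/f and 25.4 to 41.5 FPKM in d/d (adjusted p = 0.0612).

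Among 10 tested proteins that carry these glycans, 3 epithelial mucins were called higher and 2 sialomucins lower. Muc4 stood at 2.03, 1.45 and 2.19 FPKM in f/f, against 52.3, 69.1 and 218 FPKM in d/d (limma adjusted p = 0.00887). Muc20 (0.392 to 0.758 FPKM in f/f, 26.7 to 77.2 in d/d) and Muc1 (27.6 to 53.2 FPKM in f/f, 172 to 589 in d/d) also rose (limma adjusted p = 0.00695 and 0.0352). Muc20 was under 1 FPKM in every f/f library, so it passed the filter only through d/d. The counts that hold Muc20 are no support. Podxl and Cd34, carriers on endothelium and other cells, fell 2.02-fold and 2.13-fold (adjusted p = 0.0388 and 0.0466). Emcn, of the same list, was lower without overlap and not called (mean 87.4 FPKM in f/f, 47.6 in d/d, limma adjusted p = 0.124). Cd24a was higher without overlap and not called either (mean 256 and 785 FPKM, limma adjusted p = 0.101). The summed level of 8 endothelial markers was 330 to 528 FPKM in f/f and 206 to 378 FPKM in d/d, with 0 of the 8 genes called higher and 1 lower. An unadjusted limma p under 0.05 was reached by 5 of the 8, all lower without overlap, beside 26.7% of all genes tested. The median log2 fold change of the list was -0.66, while Cldn5 and Vwf were higher by mean. The part of cell numbers in these falls was not tested. Selectins and galectins, which bind these glycans, gave 0 calls among 7 tested genes by limma, with 2 at an unadjusted p under 0.05, beside 26.7% of all genes tested. Lgals3 stood at 23.8, 22.8 and 31.6 FPKM in f/f, against 117, 286 and 53.7 FPKM in d/d (adjusted p = 0.0714). It was highest in the library with the highest myeloid, neutrophil, lymphocyte and NK cell, and stromal marker sums.

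Since Mettl3 is the RNA methylation enzyme, the letters GGACT, a core that its complex favours in RNA, were counted in 1 GENCODE transcript per gene. The median was 0.944 copies per kb over the 8 called members, 1.25 over the 44 other tested members and 1.06 over 12929 tested genes with a transcript. B3gnt5 had 3 copies in 4872 bases (0.616 per kb). The counts describe the letters only, and no methylation was measured.

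The 22 members that were not tested had low values. Besides St6gal2 and St8sia3, both listed at 0 throughout, 7 were at 0 in some libraries, and a 0 in these files can be a failed estimate. The highest value among the 22 in any library, leaving out the second St6galnac2 row, was that of B3galt5, 2.72 FPKM. Galnt5 reached 2.63 FPKM in d/d replicate 3, against 0.197 to 0.353 FPKM in f/f.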

How the data were processed

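The authors deposited 1 table per library with an expression value per gene, taken here as FPKM. That unit was inferred, since the file headers name none: values are decimals and totals differ. The submitters' processing notes list HISAT2 2.2.1, Cufflinks 2.2.1 and the builds mm9 and mm10, without roles. Whether strand was used, and so how reads of overlapping genes were shared, is not stated in them.

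For repeated symbols the row of highest mean stayed (36 rows dropped). The test used limma 3.58.1 (R 4.3.3) on log2(FPKM + 1), with genotype as the term, empirical Bayes with a trend, two-sided. Same-numbered f/f and d/d libraries did not deviate together (correlations -0.02, 0.02 and -0.02), and no block was used in the main fit. With 3 libraries per genotype these values cannot exclude pairing. Positions and exon overlaps are from GENCODE M21 (GRCm38), matched by Ensembl identifier for all 75 rows.

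The members and all 17 lists were chosen with earlier results of these data known. Any member could be named. Full statistics were given for members past the threshold and for those without overlap whose means differed at least 2-fold. Of each pathway list, genes past the threshold and up to 4 more by unadjusted p could be named, and others named here (Gne, Nans, Cmas, Slc35a1, C1galt1) were chosen for their place in the pathway after values were seen. Alternatives were a pseudocount of 0.1, other filters, other scalings, library weights, a replicate block and leaving out each library.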

Additional observations from a re-analysis of the deposited data

How the results depend on the processing

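The 13 members with full statistics gave 168 values under 13 alternatives (St8sia2 could not be fitted with a filter on the mean), of which 130 stayed on their side of the threshold, 32 lost and 6 gained it, and 0 changed direction. With no filter on low values, 4 members were called higher, 291 of all genes were called higher and 0 pathway list genes were called lower. A fit with the replicate block called 2 members higher (St6gal1 and Galnt3) and kept B3gnt5 as lower, with 51 of all genes higher, 49 lower, and 2 pathway list genes higher and 0 lower. Whether libraries were paired is not stated in the labels, and the correlations above cannot exclude it, so it is unknown which of the 2 fits suits the design. Leaving out 1 library at a time gave 0 to 10 members higher and 0 to 3 lower, 0 to 729 of all genes higher and 0 to 748 lower, and 0 to 10 pathway list genes higher and 0 to 6 lower. The low ends came without f/f replicates, and the cause was not tested. Of the 39 other tested members, 15 changed sign in some setting, none with a log2 fold change beyond 0.30 in size. The absolute depth is unknown, so no counting error can be given for members below 1 FPKM.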
